A study of Homo sapiens with 11 samples.

Results

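The total mH2A1 peak list of WT MDA-MB231 cells holds 24222 regions, and all of them are described here without a filter. They come from 1 ChIP-seq library made with a commercial antibody (Abcam) against total mH2A1, and they make up 24222 of the 54909 regions in the peak lists of the series. The other 30687 regions are peaks of the mH2A1.1 isoform, from 1 library made with a custom polyclonal antibody in the same WT cells, and serve as the comparison. Of these, 11849 (38.6%) overlapped an mH2A1 peak. The study kept only peaks common to both libraries as its mH2A1.1 peaks, whereas the full list is used here. MDA-MB231 is an established human cell line of triple-negative breast cancer (TNBC), derived from a pleural effusion. The ChIP-seq cells had no treatment. The 2 WT RNA-seq libraries used for expression came from WT cells given the transfection reagent INTERFERINE without siRNA, for 3 days. The series has 11 samples, and the ChIP-seq input, the 2 mH2A1.1 KD RNA-seq libraries and the 4 promoter capture Hi-C libraries are not analysed here. Each antibody has 1 library, so no value on peaks has a replicate error. The study reports that the antibody against total mH2A1 recognizes both isoforms, with lower affinity for tagged mH2A1.1 than the custom antibody. The mH2A1.1 library also had more uniquely mapped reads. Whether differences between the lists come from the isoforms, the antibodies or the depth was not tested. Shares are given with 95% Clopper-Pearson intervals, which cover counting error only.

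MacroH2A1 is a variant of histone H2A in which an H2A-like part is joined to a large globular macro domain. The MACROH2A1 gene makes the isoforms mH2A1.1 and mH2A1.2 from alternative exons, and the macro domain of mH2A1.1, not that of mH2A1.2, binds ADP-ribose. In many cell types macroH2A1 lies over broad domains of facultative heterochromatin, which carry the Polycomb mark H3K27me3, and it is also known from the promoters of some expressed genes.

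The promoters of 3 genes show what the widest mH2A1 peaks contained. GRM4 and HMGA1 started inside the same mH2A1 peak of 462 kb, where GRM4 had no WT count and HMGA1 was strongly expressed. KRT9, also without WT counts, started inside a peak of 246 kb. The sequences are the 250 bases upstream of each transcription start site (TSS) in GRCh38, on the strand of the gene, with each CpG in capitals. They lie at chr6:34155623-34155872 (minus strand), chr6:34236623-34236872 (plus strand) and chr17:41572060-41572309 (minus strand), in the order shown.
GRM4: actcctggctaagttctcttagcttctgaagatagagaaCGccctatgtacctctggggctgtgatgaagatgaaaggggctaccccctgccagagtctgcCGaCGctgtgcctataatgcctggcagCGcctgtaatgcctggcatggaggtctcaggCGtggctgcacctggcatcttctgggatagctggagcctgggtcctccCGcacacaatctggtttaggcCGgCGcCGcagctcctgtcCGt
HMGA1: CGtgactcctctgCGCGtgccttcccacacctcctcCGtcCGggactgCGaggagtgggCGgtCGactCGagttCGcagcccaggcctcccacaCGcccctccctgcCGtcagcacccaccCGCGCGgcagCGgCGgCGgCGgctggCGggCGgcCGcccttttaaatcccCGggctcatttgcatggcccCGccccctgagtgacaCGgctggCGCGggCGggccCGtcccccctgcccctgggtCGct
KRT9: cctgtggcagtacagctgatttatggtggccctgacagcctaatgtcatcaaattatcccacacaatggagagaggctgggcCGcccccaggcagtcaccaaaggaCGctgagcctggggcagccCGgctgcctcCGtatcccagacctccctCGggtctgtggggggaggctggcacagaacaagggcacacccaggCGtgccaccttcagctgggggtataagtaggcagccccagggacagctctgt
The GRM4 promoter held 10 CpGs and that of HMGA1 held 30, against a median of 14 in the same window of the 18108 protein-coding genes measured. The KRT9 promoter held 6 CpGs. Among protein-coding genes with an mH2A1 peak at the TSS, the median was 7 CpGs in the 1037 genes without WT counts and 19 in the 835 genes of the highest expression class, the same order as in all protein-coding genes, where the medians were 5 and 19.

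The WT libraries held 9794674 and 7856892 counts on 23167 gene identifiers, of which 23061 were matched to GENCODE release 44. Levels that are compared between genes are FPKM, counts scaled by exon length and by the counts on all protein-coding genes of the library, and each is given for WT replicate 1 and then replicate 2. The libraries are bulk RNA, so a low level cannot be told apart between fewer expressing cells and less RNA per cell. The 5 markers chosen for MDA-MB231 and mesenchymal breast cancer cells, VIM, CD44, EGFR, AXL and CAV1, lay between 41.1 and 479 FPKM in both libraries. Of the luminal markers, ESR1 and PGR had no counts and FOXA1 had 1 and 0, whereas GATA3 had 5.36 and 5.40 FPKM and EPCAM 8.14 and 9.00 FPKM. The fibroblast gene DCN had no counts, COL1A1 had 1.07 and 0.954 FPKM, and PECAM1, of endothelium, 0.392 and 0.437 FPKM. MACROH2A1 itself was at 22.5 and 22.9 FPKM, its TSS lay in an mH2A1 peak of 12 kb, and mH2A1 peaks covered 5.97% of the gene body.

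The mH2A1 list was made of many narrow and few broad peaks, and the few broad ones held about as much sequence as all the others. All starts and widths are multiples of 3 kb, the bin of the authors' peak calls. The 24222 peaks covered 243 Mb, or 7.87% of the chromosome lengths. Of these, 14685 peaks (60.6%) were a single bin of 3 kb and held 18.1% of the covered sequence. Peaks of 6 to 9 kb numbered 3497, and those of 12 to 21 kb numbered 3572. The 2468 peaks of 24 kb or more were 10.2% of the peaks and held 120 Mb, 49.2% of the covered sequence. The median width was 3 kb, the 90th percentile 24 kb, the 99th percentile 84 kb and the maximum 462 kb, and 169 peaks reached 100 kb. The mH2A1.1 list was similar in shape, with 60.3% of its 30687 peaks at 3 kb, 9.30% at 24 kb or more and a maximum of 495 kb, and it covered 290 Mb. Neighbouring mH2A1 peaks lay a median of 27 kb apart. No gap was below 9 kb, the width of 3 bins, and 14.1% of the gaps had exactly this size, so breaks inside a domain that were shorter than 9 kb are not visible in the list.

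**Figure D1:**
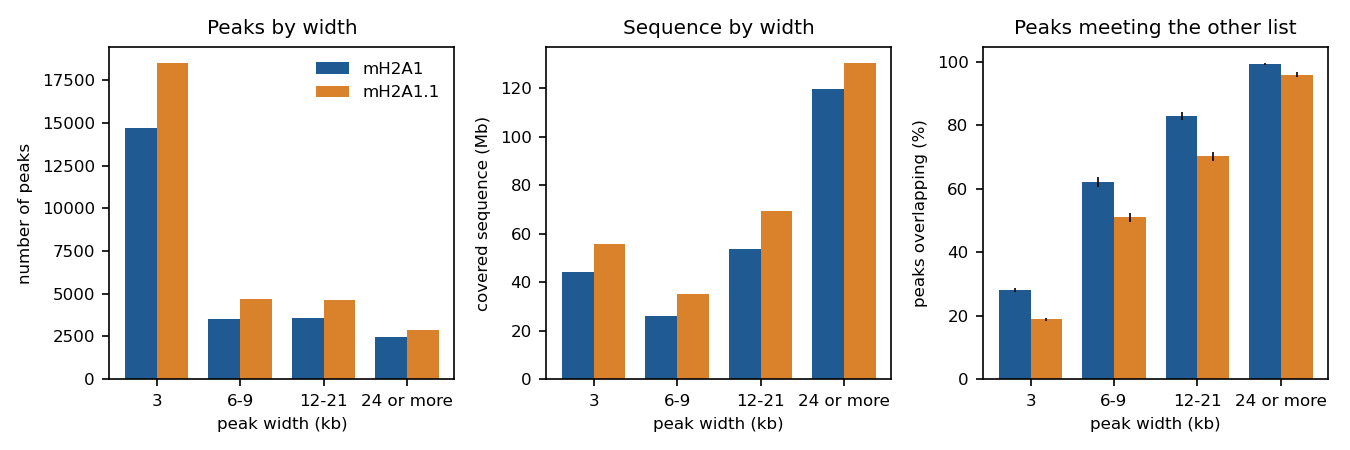
Peaks of the mH2A1 list (blue) and the mH2A1.1 list (orange) by width class in kb, as the number of peaks (left), the covered sequence in Mb (middle) and the share that overlapped a peak of the other list by at least 1 bp (right, bars with 95% Clopper-Pearson intervals for counting error). The 14685 mH2A1 peaks of 3 kb held 44.1 Mb and overlapped in 28.1%, whereas the 2468 of 24 kb or more held 120 Mb and overlapped in 99.4%.

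Whether an mH2A1 peak met an mH2A1.1 peak depended on its width. Overlap of at least 1 bp was found for 11707 peaks (48.3%, 95% interval 47.7% to 49.0%). It was found for 28.1% of the peaks of 3 kb, 62.2% of those of 6 to 9 kb, 82.8% of those of 12 to 21 kb and 99.4% of those of 24 kb or more. Only 16 of the 2468 broad peaks met no mH2A1.1 peak. A wide peak has more room to meet another one, but the share of its bases inside mH2A1.1 peaks was also higher, at 28.1%, 44.5%, 50.5% and 72.1% in the same order. As a background, 9.88% of the known bases were in mH2A1.1 peaks, and this share differed with G+C content. Of all 3-kb bins at 45% to 50% G+C it was 25.7%, near the 28.1% of the 3-kb peaks, which had 46.3% G+C. At 50% to 55% it was 42.1%, against 72.1% for peaks of 24 kb or more, which had 50.6% G+C. In all, 137 Mb of the mH2A1 sequence (56.4%) was also in mH2A1.1 peaks, and 106 Mb was not. Of the 12515 mH2A1 peaks without overlap, 84.4% were 3 kb wide. They lay a median of 12 kb from the nearest mH2A1.1 peak, 6145 of them (49.1%) were within 9 kb of one, and 2228 directly adjoined one. The edges often fell on the same bin boundary, as 6396 of the 11707 overlapping peaks (54.6%) shared a start or an end with an mH2A1.1 peak and 1850 (15.8%) had the same start and end. Up to 6 mH2A1.1 peaks lay on 1 mH2A1 peak. No background was counted for the distances, the adjoining peaks or the shared edges.

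The mH2A1 peaks were very unevenly spread over the chromosomes. Of the known bases, 27.1% lay in mH2A1 peaks on chromosome 19, 20.3% on 17, 20.2% on 20 and 16.9% on 22. At the other end were chromosome 18 with 3.99%, chromosome 4 with 3.60%, chromosome 13 with 2.46% and the X chromosome with 2.22%. The inactive X chromosome is a known site of macroH2A1, and these data do not tell the copies of a chromosome apart. Of the mH2A1 peaks, 21.2% were 24 kb or more on chromosome 19 and 3.03% on chromosome 13. Over the autosomes and X (23 chromosomes), coverage had a Spearman's rho of 0.87 with G+C content and of 0.81 with protein-coding TSSs per Mb. Coverage by mH2A1.1 was higher on each of these chromosomes, by between 1.06 times on chromosome 22 and 1.37 times on chromosome 14, with a rho of 0.995 between the lists.

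The same was seen on a finer scale. Among the 2714 windows of 1 Mb without assembly gaps, 491 (18.1%) held no mH2A1 peak, the median coverage was 2.40%, and 40 windows were covered by more than 50%. In the quintile of windows with the lowest G+C content, at most 36.9%, mH2A1 peaks covered 0.304% of the sequence. In the highest quintile, at least 44.1%, they covered 25.8%. Spearman's rho over the windows was 0.83 between mH2A1 coverage and G+C content, 0.67 with the number of protein-coding TSSs and 0.95 with mH2A1.1 coverage. Windows of a chromosome are neighbours, and ChIP-seq and its input can differ in depth with base composition, so these are descriptions, and the part of G+C in the peak calls was not tested. Bins within 5 Mb of a chromosome end were in mH2A1 peaks in 18.7%, those 5 to 20 Mb away in 11.6% and those farther away in 6.32%, with G+C contents of 47.3%, 42.2% and 39.8%.

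**Figure D2:**
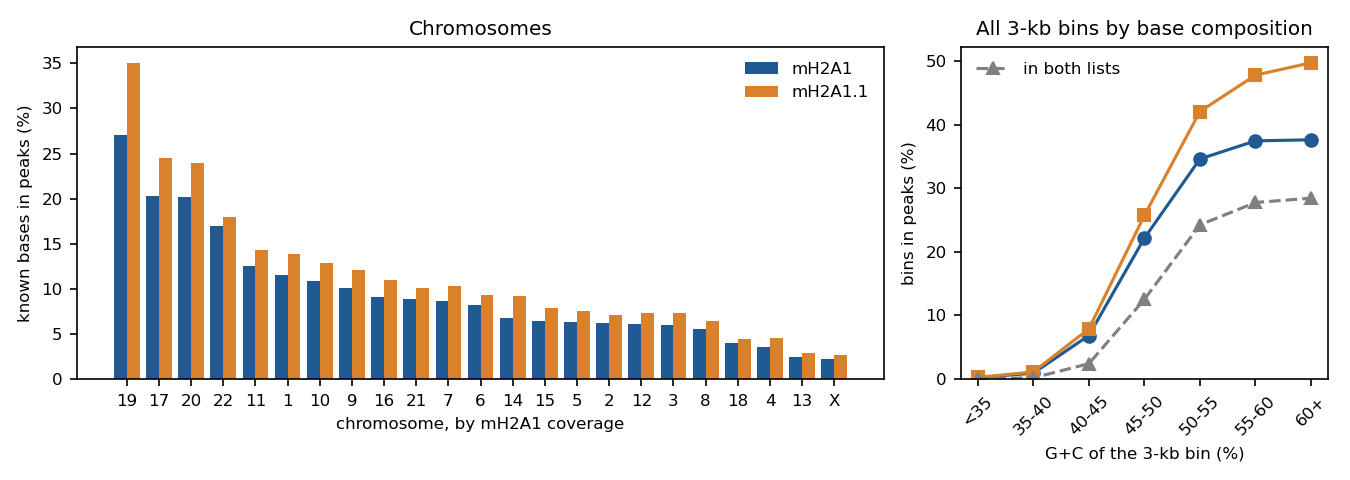
Left, share of known bases in mH2A1 (blue) and mH2A1.1 peaks (orange) for the autosomes and X, ordered by mH2A1 coverage, from 27.1% on chromosome 19 to 2.22% on X for mH2A1. Right, share of all 3-kb bins in mH2A1 peaks (circles), mH2A1.1 peaks (squares) and both (triangles) by the G+C content of the bin. The mH2A1 share goes from 0.228% below 35% G+C to 37.6% at 60% or more.

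Bin by bin, mH2A1 coverage levelled off at high G+C content, where mH2A1.1 coverage still differed between classes. Of the bins at 40% to 45% G+C, 6.84% were in mH2A1 and 7.88% in mH2A1.1 peaks. At 50% to 55% the shares were 34.6% and 42.1%, at 55% to 60% they were 37.5% and 47.8%, and above this 37.6% and 49.7%. Bins in mH2A1 peaks had 49.0% G+C and 16.9 CpGs per kb, against 40.9% and 10.0 in all bins. The G+C content also went with the width of the peak, from 46.3% in peaks of 3 kb to 50.6% in those of 24 kb or more.

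With respect to genes, the mH2A1 peaks were richer in promoters than the genome, but less so than mH2A1.1 peaks. A TSS of any annotated gene lay within 1 kb of 6541 mH2A1 peaks (27.0%, 95% interval 26.4% to 27.6%). This share goes with width, being 15.4% for peaks of 3 kb and 72.4% for those of 24 kb or more, so single-bin peaks were set against all bins of the same size. Of all 3-kb bins, 8.96% had a TSS within 1 kb, against 15.4% of the mH2A1 peaks (95% interval 14.8% to 15.9%) and 17.9% of the mH2A1.1 peaks of this size (17.3% to 18.4%). Among the 3-kb mH2A1 peaks, the share was 20.8% for those that overlapped an mH2A1.1 peak and 13.2% for those that did not. Another 30.4% of the 3-kb mH2A1 peaks were intronic and 29.1% intergenic, against 35.6% and 33.8% of all bins.

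Sequence in mH2A1 but not in mH2A1.1 peaks held fewer protein-coding TSSs than shared sequence and more than sequence in neither list. Bins in mH2A1 only contained a protein-coding TSS in 3.10%, those in both lists in 5.50% and those in mH2A1.1 only in 7.72%, against 1.26% of the bins in neither. Intergenic bases made up 41.4% of the bins in mH2A1 only, 41.5% of those in both and 28.9% of those in mH2A1.1 only. Within the mH2A1 list, intergenic bases went from 36.1% in peaks of 3 kb to 43.4% in peaks of 24 kb or more. Still, protein-coding TSSs were denser in broad mH2A1 peaks than in the genome, at 15.3 against 6.82 per Mb. Of the broad peaks, 56.1% held no protein-coding TSS, 26.0% held 1 and 17.9% held several, with a maximum of 13.

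Genes were then taken by the position of their TSS, counting a peak within 500 bp. An mH2A1 peak was found at 4881 of the 23061 genes, 21.2% of them, and an mH2A1.1 peak at 8716 genes, or 37.8%. Among the 18108 protein-coding genes the shares were 22.3% and 40.5%. Both antibodies had a peak at 3456 genes, mH2A1 alone at 1425 and mH2A1.1 alone at 5260. Here and below, alone means that the other list had no peak there, not that the other form was absent. By gene type, mH2A1 was found at 534 of 2810 lncRNA genes (95% interval 17.6% to 20.5%), 16.1% of 1611 miRNA genes and 7.78% of 334 snoRNA genes.

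The question of how mH2A1 relates to transcription was addressed with 4 classes of genes, the 7366 without counts in either WT library and 3 classes of equal size by mean WT FPKM. For mH2A1, the share of genes with a peak at the TSS was 21.7% in undetected genes (95% interval 20.8% to 22.7%), 28.8% in the low class (27.5% to 30.0%), 17.8% in the middle class (16.8% to 18.8%) and 16.2% in the high class (15.2% to 17.2%). For mH2A1.1 it was 24.8%, 40.3%, 42.9% and 48.5%. Thus the low class had the largest mH2A1 share and the high class the smallest, whereas the mH2A1.1 share was larger in each class than in the one below. Genes are not replicates, and no test was made. The contrast was larger over whole gene bodies. A gene of the low class was covered by mH2A1 peaks over 24.5% of its length on average and one of the high class over 8.10%, against 29.6% and 23.8% for mH2A1.1. Counted over all bases of the gene bodies, which gives long genes more weight, the shares were 11.1% and 5.02% for mH2A1 and 11.9% and 12.8% for mH2A1.1, so the mH2A1.1 order depended on the measure. The body was covered whole by mH2A1 in 11.7% of undetected and 2.43% of high-class genes.

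Base composition differed between the classes, as the 3-kb bin at the TSS had a median G+C content of 47.4% in undetected and 51.7% in high-class genes, so the protein-coding genes were also split into quintiles by the G+C content of this bin. This split was chosen after seeing the data. In the quintile with the most G+C (at least 58.1%), mH2A1 was at 51.5% of undetected genes (95% interval 47.6% to 55.3%), 54.8% of the low, 34.3% of the middle and 27.9% of the high class (25.1% to 30.8%). In the middle quintile, the shares were 33.6% in undetected and 15.3% in high-class genes. In the quintile with the least G+C, mH2A1 was rare in all classes. It was at 3.71% of undetected (95% interval 2.81% to 4.79%) and 5.60% of high-class genes (3.91% to 7.74%). The order was the opposite there, but these intervals overlapped. In the quintile with the most G+C, mH2A1.1 went the other way, from 49.9% of undetected to 70.5% of high-class genes.

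Expression was therefore read in each group of TSSs. Among protein-coding genes, the median was 0.108 and 0.101 FPKM at the 1140 TSSs with mH2A1 alone, 0.637 and 0.622 FPKM at the 2895 with both, 5.80 and 5.87 FPKM at the 4441 with mH2A1.1 alone, and 1.41 and 1.33 FPKM at the 9632 with neither. The 2 WT libraries gave the same order. The median with mH2A1 alone was only a few counts, at 0.510 and 0.382 CPM (counts scaled by library size only). In these libraries 3 counts are 0.306 and 0.382 CPM. Over all genes, non-coding ones included, the order of 2 groups turned. Genes with both had a median of 0.247 and 0.244 FPKM and those with neither 0.182 and 0.158 FPKM. In CPM these medians were 0.817 and 0.764 against 0.408 and 0.382, so this turn rests on a few counts per gene. Genes without counts made up 31.8% of those with mH2A1 alone and 8.40% of those with mH2A1.1 alone. Expression also went with the width of the mH2A1 peak. With the TSS in an mH2A1 peak of 3 kb, the median was 2.02 and 2.01 FPKM over 707 protein-coding genes, in peaks of 6 to 9 kb it was 1.34 and 1.34, in peaks of 12 to 21 kb 0.408 and 0.396, and in those of 24 kb or more 0.124 and 0.116 FPKM over 1735 genes. In the broad peaks, 83.6% of these genes also had mH2A1.1 at the TSS, against 51.9% in the peaks of 3 kb, and the median G+C content of the TSS bin was 56.9% and 53.5%.

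The mH2A1 peaks around expressed genes were placed unevenly on the sides of the TSS. At each distance from a protein-coding TSS, counted along the direction of transcription, the share of genes with a peak in that bin was taken. In the high class, mH2A1 was present at 23% of genes 6 kb upstream, 14.2% at the TSS, 8.89% at 6 kb and 8.60% at 9 kb downstream, and 18.8% at 60 kb downstream. The middle class had the same form, with 19.5% at 6 kb upstream and 11.2% at 6 kb downstream. In the low class, the share was highest at the TSS, 29.7%, and was 22.7% at 6 kb upstream and 26.9% at 6 kb downstream. Undetected genes had 20.1%, 23.3% and 20.5% at these places. For mH2A1.1, the high class had a maximum of 45.9% at the TSS, with 32.2% at 6 kb upstream and 23.4% at 6 kb downstream. The bins 6 kb upstream and downstream of high-class genes had nearly the same G+C content, 45.1% and 44.7%.

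Counted gene by gene at 6 kb on each side, 964 of the 5104 high-class genes had mH2A1 upstream only and 244 downstream only, 3.95 times fewer. The same ratio was 2.39 in the middle class, 0.689 in the low class and 0.956 in undetected genes. For mH2A1.1 the ratio in the high class was 1.87. Neighbouring genes can share such bins, and what lies upstream of a gene may belong to the next one.

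**Figure D3:**
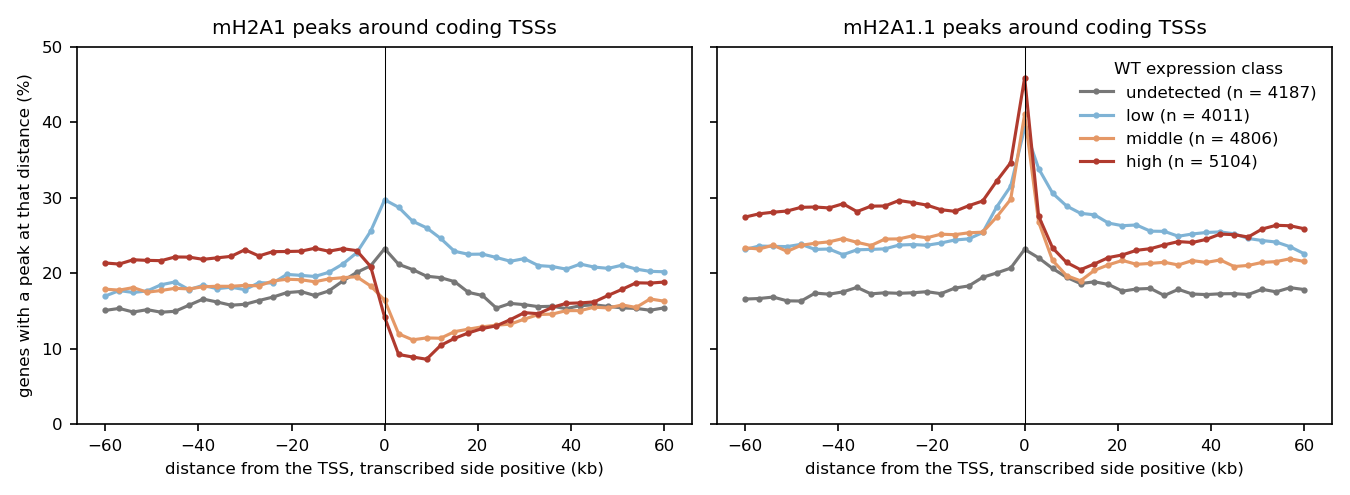
Share of protein-coding genes with an mH2A1 peak (left) or an mH2A1.1 peak (right) at each distance from the TSS in kb, in steps of 3 kb, with the transcribed side positive and 1 line for each WT expression class. In the high class mH2A1 goes from 23% at 6 kb upstream to 8.60% at 9 kb downstream, whereas mH2A1.1 has its maximum of 45.9% at the TSS.

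The ends of broad mH2A1 peaks showed the same asymmetry. The 2468 peaks of 24 kb or more have 4936 edges, of which 579 (11.7%) had a protein-coding TSS within 3 kb. Of the 228 TSSs of high-class genes found there, 206 (90.4%, 95% interval 85.8% to 93.9%) were transcribed away from the broad peak. In the middle class it was 122 of 140 (87.1%). Of the 144 TSSs of the low class, in contrast, 43 were transcribed away from the peak (29.9%, 95% interval 22.5% to 38%) and the others into it, and of the 107 TSSs of undetected genes, 45 were transcribed away and 62 into it. A gene transcribed into a broad peak lies mostly inside it, so these counts restate on single edges which genes the domains covered.

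Gene families were compared with the 22.3% of all protein-coding genes that had mH2A1 at the TSS and the 40.5% that had mH2A1.1. The families are read from gene symbols, were chosen with results of these data known, and their shares are descriptions. Genes of a cluster can share 1 peak, whereas the intervals treat genes as independent. They are therefore too narrow for clustered families such as the HOX genes and keratins. The family with the largest mH2A1 share was the HOX genes, which set position along the body axis in the embryo, with 23 of 39 genes (59.0%, 95% interval 42.1% to 74.4%). It was also one of 5 families with a larger share for mH2A1 than for mH2A1.1, which was at 19 genes (48.7%). The 4 HOX clusters differed, and the larger mH2A1 share came mainly from HOXA. In HOXA, at chr7:27092993-27200091, 10 of 11 genes had mH2A1 and 5 had mH2A1.1, and 10 genes had no WT counts. There mH2A1 peaks covered 74.8% of the cluster and mH2A1.1 peaks 42.0%. In HOXB, on chromosome 17, mH2A1 was at 7 of 10 genes and covered 41.6% of the cluster, whereas mH2A1.1 was at 6 and covered 55.3%. The most expressed HOX gene, HOXB9, with 4.09 and 4.43 FPKM, had mH2A1.1 alone at its TSS. HOXB3, with 0.803 and 0.561 FPKM, started in an mH2A1 peak of 24 kb and also had mH2A1.1. In HOXC and HOXD, mH2A1 was at 4 of 9 and 2 of 9 genes and covered 15.4% and 12.2%, although 5 genes of each cluster had no counts. In these clusters mH2A1.1 was at 6 and 2 genes and covered more, 38.4% and 27.5%.

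Of 4 families of membrane, matrix and signalling proteins, potassium channels and collagens had mH2A1 intervals above 22.3%, whereas those of cadherins (17.2% to 59.3%) and of WNT and Frizzled genes (19.4% to 57.6%) held this value. Potassium channels, which set the membrane potential, had mH2A1 at 36 of 80 genes (45%, 95% interval 33.8% to 56.5%), of which 21 lay in broad peaks. KCNN3, a calcium-activated channel without counts, started in an mH2A1 peak of 105 kb, whereas KCNN4, of the same subfamily, was at 11.6 and 12.8 FPKM and started in one of 24 kb. Collagens, the fibre and sheet proteins of the matrix, had mH2A1 at 18 of 43 genes (41.9%) and mH2A1.1 at 20. COL13A1, a transmembrane collagen, was at 18.6 and 18.3 FPKM with its TSS in an mH2A1 peak of 129 kb, and COL5A1, of fibrils, at 38.4 and 38.6 FPKM had mH2A1.1 alone. Cadherins, the proteins of cell-to-cell adhesion, had mH2A1 at 8 of 22 genes (36.4%). CDH1, the E-cadherin of epithelia, had 22 and 19 counts (0.379 and 0.407 FPKM), and its TSS lay in an mH2A1 peak of 126 kb at chr16:68697001-68823000, with 90.8% of its body in mH2A1 peaks. CDH11, a mesenchymal cadherin at 13.4 and 12.5 FPKM, had neither at its TSS and no mH2A1 over its body. WNT ligands and Frizzled receptors had mH2A1 at 10 of 27 genes (37.0%), 7 of them without mH2A1.1. WNT7B, with 9.39 and 9.84 FPKM, was covered whole by an mH2A1 peak of 102 kb and over 96.2% by mH2A1.1 peaks, none within 500 bp of its TSS, while FZD6 and FZD7, at 15.7 to 29.3 FPKM, had no mH2A1 at the TSS.

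Keratins, the intermediate filaments of epithelia, had mH2A1 at 18 of 50 genes (36.0%), 15 of them in broad peaks. A single peak of 246 kb on chromosome 17 held the TSSs of 11 keratin genes. KRT8 and KRT18, at 71.7 to 123 FPKM, had mH2A1.1 alone. Matrix metalloproteinases, which cut matrix proteins, had mH2A1 at 7 of 21 genes (33.3%). Among them MMP14, the membrane-type enzyme at 118 and 128 FPKM, had mH2A1.1 alone, and MMP19, at 1.5 and 0.975 FPKM, was covered whole by an mH2A1 peak of 12 kb. Other developmental transcription factors had mH2A1 at 43 of 143 genes (30.1%, 95% interval 22.7% to 38.3%), among them GATA6 at 15.1 and 14.1 FPKM, while SOX9, at 49.9 and 47.7 FPKM, had mH2A1.1 alone. S100 proteins, small calcium-binding proteins, had mH2A1 at 6 of 20 genes (30.0%). In their cluster on chromosome 1, an mH2A1 peak of 21 kb held S100A4, a gene tied to metastasis, at 161 and 163 FPKM, and S100A3, which lies within the annotated span of S100A4, so that reads of the pair are uncertain, whereas S100A6, at 1256 and 1461 FPKM, lay outside it with mH2A1.1 alone. Integrins had mH2A1 at 7 of 26 genes (26.9%), including ITGA6 at 116 and 111 FPKM but not ITGA3 or ITGB1. The mH2A1 intervals of matrix metalloproteinases (14.6% to 57.0%), S100 proteins (11.9% to 54.3%) and integrins (11.6% to 47.8%) held the 22.3% of all protein-coding genes.

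Some families of mostly undetected genes had mH2A1 at few members. Olfactory receptors were without counts in 312 of 330 genes, and mH2A1 was at 11 of them (3.33%, 95% interval 1.68% to 5.89%). Keratin-associated proteins of hair were without counts in 71 of 73 genes, and 7 had mH2A1 (9.59%). Clustered protocadherins, adhesion proteins of neurons that lie in a row on chromosome 5, were mostly detected at low levels (12 of 53 without counts) and had mH2A1 at 0 of 53 genes, which allows a share of up to 6.72% (upper bound of the interval). The median G+C content of the TSS bin was 38.4%, 42.3% and 43.3% in these families, against 56.5% in the HOX genes.

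Like protein-coding genes in general, the families that follow had mH2A1 at fewer genes than mH2A1.1. Zinc finger genes on chromosome 19 had mH2A1 at 23 of 238 genes (9.66%, 95% interval 6.23% to 14.1%) and mH2A1.1 at 98 (41.2%), although this chromosome had the largest mH2A1 coverage. Mitochondrial ribosomal proteins had mH2A1 at 7 and mH2A1.1 at 37 of 74 genes, cytosolic ribosomal proteins at 16 and 40 of 73 genes, and replication-dependent histones at 9 and 25 of 60 genes. Proteasome subunits had mH2A1 at 6 and mH2A1.1 at 12 of 36 genes, and genes of DNA replication licensing at 3 and 6 of 20 genes. The mH2A1 intervals of the cytosolic ribosomal proteins, histones, proteasome subunits and licensing genes held the 22.3% of all protein-coding genes, and those of the zinc finger genes and mitochondrial ribosomal proteins lay below it. Of the ribosomal proteins with mH2A1, RPL35 (195 and 217 FPKM) lay whole inside a peak of 51 kb and also had mH2A1.1 at the TSS. MCM7, of the replicative helicase, was at 67.2 and 73.2 FPKM with an mH2A1 peak of 9 kb at its TSS.

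**Figure D4:**
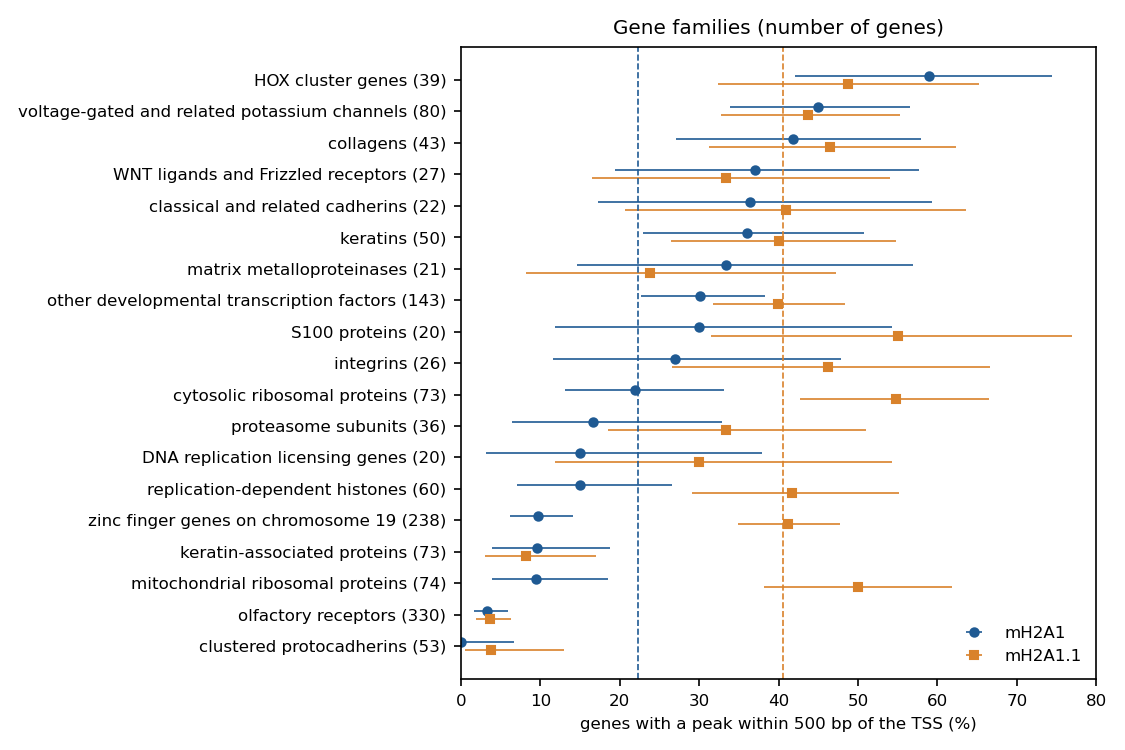
Share of genes with an mH2A1 peak (blue circles) or an mH2A1.1 peak (orange squares) within 500 bp of the TSS in 19 gene families, with the number of genes in parentheses and 95% Clopper-Pearson intervals for counting error. Dashed lines are the shares of all protein-coding genes, 22.3% for mH2A1 and 40.5% for mH2A1.1. HOX genes are at 59.0% for mH2A1 and olfactory receptors at 3.33%.

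Of the 10 widest mH2A1 peaks, of 246 to 462 kb, 3 held genes without counts beside detected genes, 5 held detected genes only and 2 held no protein-coding TSS. The widest, at chr6:33795001-34257000, held the TSSs of 4 protein-coding genes, and 87.0% of it lay in 5 mH2A1.1 peaks. MLN, which encodes the gut hormone motilin, and GRM4, a glutamate receptor, had no counts. HMGA1, an architectural chromatin protein, had 10790 and 9051 counts (485 and 506 FPKM), and its neighbour SMIM29 was at 15.5 and 17.4 FPKM. Both of these lay near the end of the peak on the side of higher coordinates. The second widest peak, at chr6:43689001-44091000, held 1 protein-coding TSS, that of the angiogenic factor VEGFA, at 26.3 and 27.1 FPKM. The third, at chr11:69675001-69984000, held the growth factor genes FGF19, FGF4 and FGF3, all without counts, and the start of LTO1, at 4.37 and 4.15 FPKM, which was transcribed out of it. CCND1, the cyclin of G1 phase, lay between this peak and the eighth widest and was at 180 and 176 FPKM with mH2A1.1 alone at its TSS.

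**Figure D5:**
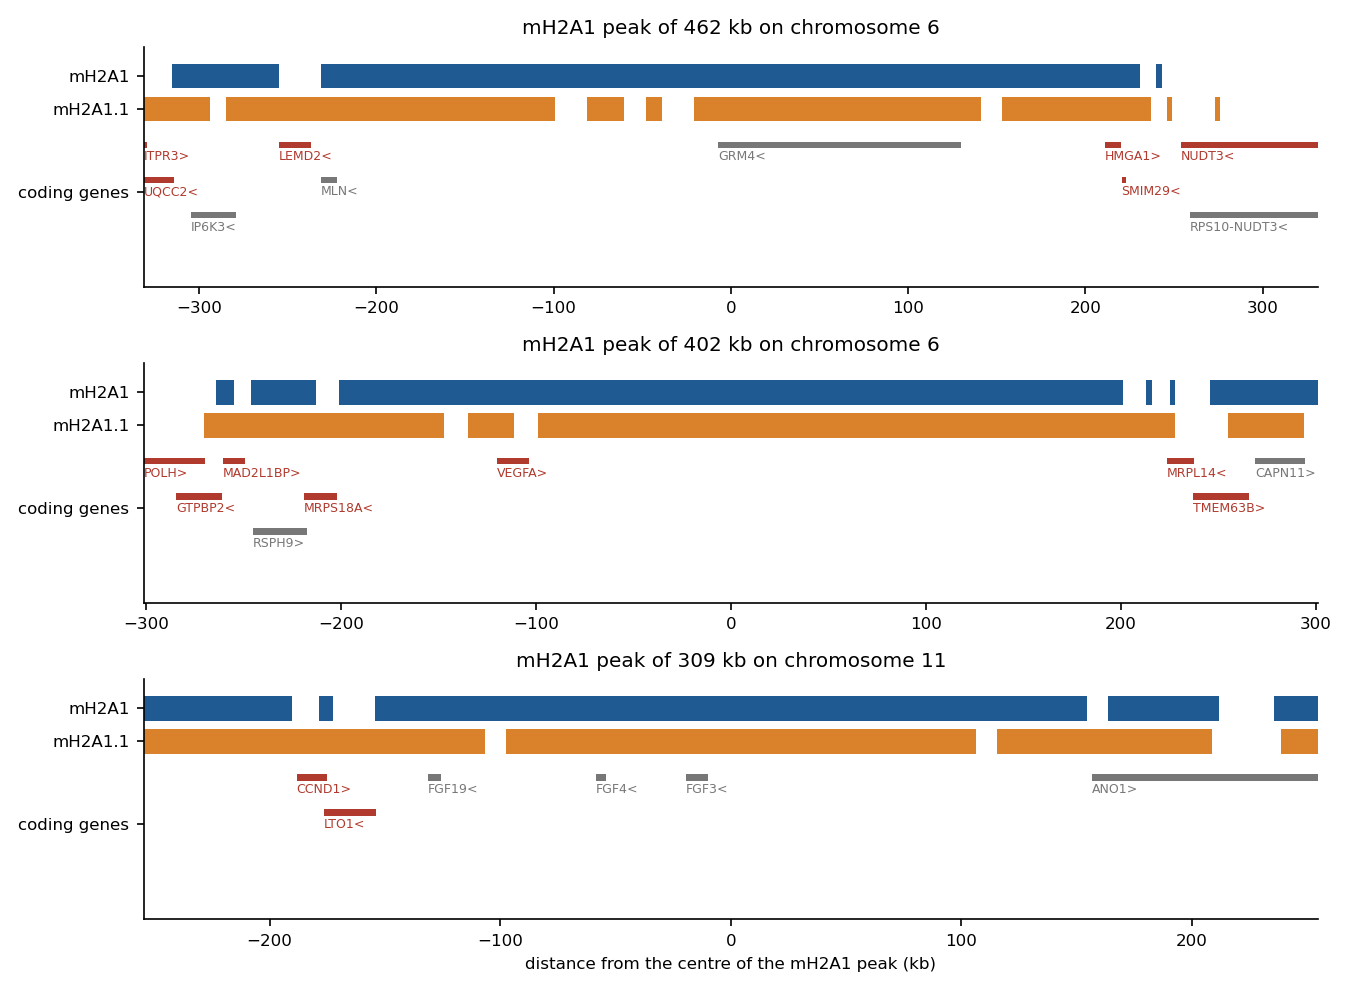
The 3 widest mH2A1 peaks (blue) with mH2A1.1 peaks (orange) and protein-coding genes below, against the distance in kb from the centre of the mH2A1 peak. Genes are red at a mean WT FPKM of at least 1 and grey below, and the sign after a name gives the direction of transcription. The peak of 462 kb holds GRM4 without counts and, near its right end, HMGA1 at 485 and 506 FPKM.

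Among the other wide peaks, the one at chr3:193905001-194157000 held the TSS of HES1, a repressor of the Notch pathway, at 7.98 and 12.3 FPKM. The one at chr4:7938001-8205000 began at the start of AFAP1, an actin-binding protein at 38.2 and 36.9 FPKM that was transcribed away from it and had 7.29% of its body in mH2A1 peaks. The one at chr6:36978001-37224000 held PIM1, a kinase gene at 18.6 and 19 FPKM, and FGD2, with 1 count in each library. The peak at chr6:37473001-37767000 contained CCDC167 and MDGA1 whole, at 27.6 and 28.7 and at 1.15 and 1.63 FPKM. The peaks at chr20:50208001-50475000 and chr11:69387001-69639000 held no protein-coding TSS and lay wholly within mH2A1.1 peaks. The tenth, at chr17:41436001-41682000, covered 11 type I keratin genes, of which 7 had no counts. KRT19 in the middle of it had 2473 and 2182 counts (111 and 122 FPKM), whereas KRT15, beside it, was at 0.631 and 0.916 FPKM and KRT14, KRT16 and KRT17, the keratins of basal and stressed epidermis, had at most 8 counts. This was the wide peak with the least mH2A1.1, 70.7%, and KRT38, KRT9 and KRT14 had mH2A1 without mH2A1.1 at the TSS.

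Whole gene bodies lay in mH2A1 peaks for 1184 protein-coding genes (6.54%), of which 485 (41.0%) were undetected, 428 were in the low, 155 in the middle and 116 (9.80%) in the high class. Most were short, with a median length of 7.80 kb, and 40 exceeded 50 kb, of which 1 was of the high class. Of the 1184 genes, 738 were also covered whole by mH2A1.1 peaks. Among the longest were COL26A1 (196 kb), HMCN2, GRM4, CDH22, MEGF6, PDE9A, NRXN2, NECTIN1 and CPNE5 (98.7 kb). Of these, COL26A1, GRM4 and NRXN2, a synaptic adhesion gene, had no counts. HMCN2 and the cadherin gene CDH22 had at most 2 counts in a library. MEGF6, PDE9A, a phosphodiesterase, and CPNE5 were between 0.238 and 0.616 FPKM. NECTIN1, a cell adhesion gene, was the exception at 6.87 and 7.81 FPKM.

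The 10 genes of highest FPKM with mH2A1 at the TSS were FTL, ACTB, ACTG1, H2AC11, HSP90AA1, HMGA1, TUBA1B, PFN1, LDHA and FLNA. FTL, the ferritin light chain, was at 1407 and 1549 FPKM in an mH2A1 peak of 12 kb that covered it whole. ACTB, cytoskeletal actin, was at 1177 and 1259 FPKM, and the start of its annotation, which spans 37.5 kb, lay in a peak of 69 kb. The peaks at the TSSs of ACTG1, H2AC11, HSP90AA1, TUBA1B, PFN1, LDHA and FLNA were 3 to 21 kb wide. Those of ACTG1 and LDHA lay mostly upstream of the start, and mH2A1 covered 12.8% and 10.4% of these gene bodies. The histone gene H2AC11 and the chaperone gene HSP90AA1 had mH2A1 without mH2A1.1 at the annotated TSS. The annotation of HSP90AA1 spans 59.0 kb and that of ACTG1 14.4 kb, and an annotated start need not be the start used most. Whether these peaks lie at the promoters that make most of the RNA was not tested. Histone genes are near-identical copies, so reads of H2AC11 can be shared with others of its family. VIM, CD44, AXL and CAV1, at 131 to 479 FPKM, had no peak of either list at the TSS, and EGFR, at 41.1 and 41.1 FPKM, started in an mH2A1 peak of 21 kb.

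The 1-Mb windows with the largest mH2A1 coverage mixed such genes as well. The first, from 69 Mb on chromosome 11, was covered by 79.6% and held the CCND1 and FGF genes named above among 9 protein-coding genes, of which 3 were undetected and 2 of the high class. The next, from 101 Mb on chromosome 7 (69.7%), held COL26A1 among 15 protein-coding genes, of which 2 were undetected and 5 of the high class. The third, from 64 Mb on chromosome 11 (68.2%), had 35 protein-coding genes, of which 7 were undetected and 13 of the high class. The window from 79 Mb on chromosome 17 (67.6%) held the Polycomb genes CBX2 and CBX8, both of the middle class. The other 6 of the 10 lay on chromosomes 20, 10, 9 and 6, were covered by 61.3% to 66.5%, and had G+C contents of 47.1% to 56.4%. Over the 10 windows, mH2A1.1 covered 59.8% to 87.7%.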

How the data were processed

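The peak list described, the gene families and the named genes were chosen with earlier results of these data known. The deposited peak lists give positions in base pairs on GRCh38. The authors called enrichment over the input with normR in bins, on 1 library per antibody, adjusting the parameters to each data set. Peak scores are 0 throughout, so no stricter threshold could be applied. For expression, the authors deposited raw read counts for each gene. They aligned with STAR (version 2.5.1 in the submitters' processing notes), filtered on mapping quality, removed duplicates and ran htseq-count. Removing duplicates can lower the counts of densely covered genes, and the annotation behind the counts is not given in the sources used here. GENCODE release 44 lacked 106 of the identifiers, with 0.120% and 0.132% of the counts.

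Peaks overlapped when they shared at least 1 bp. Promoter meant a TSS within 1 kb of a peak, and for genes a peak within 500 bp of the TSS. FPKM used the summed exon length. Log2 medians used CPM with a pseudocount of 0.1. The TSS was the annotated gene start, which need not be the start used most. Counts of overlapping genes and of near-identical copies (histones, actins, tubulins, ribosomal proteins) are uncertain. Detected meant a count in either WT library. Promoter sequences and G+C contents are from the GRCh38 genome, which holds every peak within its chromosome lengths. Python 3.11.15, numpy, pandas and scipy 1.17.1 were used, and the interval code was tested on simulated data. No test was made across genes or peaks, which are not replicates. The named genes were those with a TSS in the 10 widest peaks, the 10 of highest FPKM with mH2A1 at the TSS, the 10 longest covered whole, up to 4 per family (the 2 of highest FPKM with and the 2 without a peak), the genes of the 10 most covered 1-Mb windows, the cell type markers, MACROH2A1 and genes the study shows with ChIP-seq tracks. Y-linked genes were left out of the families. Overlap rules, widths, windows, classes, gene sets and single replicates were varied. Some genes that this rule names, and 1 promoter sequence, are not reported here.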

Additional observations from a re-analysis of the deposited data

How the results depend on the processing

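With 1 ChIP-seq library per antibody, none of the results on peaks has a replicate check, and the bin of 3 kb limits every position and width. The 7.87% of the genome in mH2A1 peaks became 6.44% with peaks of at least 6 kb, 8.27% of bases that are not N and 8.33% on autosomes. The 48.3% of mH2A1 peaks overlapping mH2A1.1 became 39.2% when at least 50% of the peak had to be covered, 73.7% within 9 kb and 65.5% with peaks of at least 6 kb in both lists. The 27.0% of peaks at a promoter became 7.0% by the midpoint, 34.3% within 3 kb, 14.2% for protein-coding TSSs and 44.9% for peaks of at least 6 kb. The undetected class had a TSS share in mH2A1 peaks 5.52 percentage points above the high class. This was 4.12 at 1 kb on each side of the TSS, 3.78 with 4 equal classes, 8.41 for protein-coding genes, 7.54 with detection from 10 counts, and 6.12 to 6.45 without a replicate. In the G+C quintiles, added after seeing the data, it was -1.90, 10.5, 18.3, 22.2 and 23.6. The quintile with the least G+C was thus reversed, with overlapping intervals of the 2 classes. The median log2 CPM of all genes with mH2A1 at the TSS was 0.17 above that of genes with neither peak, 0.064 with a pseudocount of 1 CPM and 0.26 to 0.34 without a replicate. It was reversed for genes with at least 10 counts (-0.61) and for protein-coding genes (-2.01). The set of all genes includes many non-coding genes without counts, so this contrast has no direction that holds across gene sets. In that set the medians compared were a few counts, 0.510 and 0.509 CPM with mH2A1 and 0.408 and 0.382 CPM with neither peak. The other 6 of 32 alternatives stayed within the counting or replicate error. No paired analysis was possible because the WT libraries were not compared with another group and no test was made.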
